A study of Mus musculus with 16 samples.

Results

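Toll-like receptors are membrane proteins that sense microbial molecules, and 10 of the mouse genes (Tlr1 to Tlr9 and Tlr13) are described here across 16 RNA-seq libraries of MPI-2 cells. They were chosen by name, and all 10 were found among the 55359 genes of the count files. MPI-2 cells are a continuously growing mouse line that resembles macrophages of the lung alveoli, is kept in GM-CSF and was used between passages 8 and 50. The 4 groups, with 4 biological replicates each, were cells exposed to Mycobacterium abscessus at day 1, uninfected cells at day 1, exposed cells at day 5 and uninfected cells at day 5. All groups carry the label wild type, M. abscessus is a nontuberculous mycobacterium that can live inside macrophages, and the bacterial dose and the mouse strain behind the line are not given in the sources used here. The replicates are cultures of a single line, so their spread is that of cultures and not of animals.

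Toll-like receptors signal through a cytoplasmic TIR domain that recruits the adaptors MyD88 or TRIF (the product of Ticam1), and these lead to NF-kappa-B, MAP kinases and interferon regulatory factors. Tlr1, Tlr2, Tlr4, Tlr5 and Tlr6 act mainly at the cell surface, where Tlr2 pairs with Tlr1 or Tlr6 to bind bacterial lipoproteins, those of mycobacteria among them. Tlr3, Tlr7, Tlr8, Tlr9 and Tlr13 act in endosomes and bind nucleic acids: double-stranded RNA for Tlr3, single-stranded RNA and its breakdown products for Tlr7 and Tlr8, unmethylated CpG DNA for Tlr9 and, in mice, bacterial ribosomal RNA for Tlr13.

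Total counts lay between 46154875 and 81995629 per library. All 16 macrophage markers examined had counts in every group, and their summed level was 12374 to 13629 counts per 1000000 (CPM) in exposed day 1 libraries, 8851 to 9082 CPM in uninfected day 1 libraries, 17324 to 24000 CPM in exposed day 5 libraries and 9951 to 10441 CPM in uninfected day 5 libraries. In exposed cells, 6 of the 16 were higher and 2 lower at day 1 (median log2 fold change 0.23), where 23.8% of all tested genes were called. At day 5, 11 were higher and 2 lower (median 0.51), where 57% of all tested genes were called. Markers of B cells and plasmacytoid dendritic cells, which can be rich in Tlr7 and Tlr9, summed to at most 0.521 CPM in any library, and markers of T and NK cells to at most 0.453 CPM. Neutrophil markers summed to 761 to 1049 CPM in exposed, against 300 to 391 CPM in uninfected day 1 libraries, and to 406 to 880 CPM in exposed, against 446 to 613 CPM in uninfected day 5 libraries. These sums were nearly all S100a8, which was higher in exposed cells at day 1 (log2 fold change 1.37, adjusted p = 7.26e-05). The list of 5 did not share its direction, with 1 higher and 1 lower at day 1 (median log2 fold change -0.26) and 1 higher and 3 lower at day 5 (median -0.89), and Ly6g and Elane averaged at most 0.374 CPM in any group. Epithelial markers summed to 34.5 to 42.5 CPM in exposed, against 62.6 to 67.7 CPM in uninfected day 1 libraries, and to 14.8 to 24.8 CPM in exposed, against 72.7 to 77.0 CPM in uninfected day 5 libraries, nearly all from Cdh1, while Epcam and Sftpc averaged at most 0.00635 CPM. Dendritic cell markers, mainly Zbtb46, summed to 6.80 to 8.30 CPM in exposed, against 3.75 to 4.15 CPM in uninfected day 5 libraries. Mitochondrially encoded transcripts took 0.780% to 1.24% of counts in exposed and 1.58% to 1.84% in uninfected day 5 libraries, and 1.80% to 2.69% in exposed and 1.98% to 2.23% in uninfected day 1 libraries. The part of these markers and of the mitochondrial share in the results below was not tested. The spread between libraries was widest for exposed day 5, where the standard deviation of log2 CPM had a median over genes of 0.299, and 0.113 to 0.148 elsewhere. In RNA from whole cultures, fewer cells with a transcript and less of it per cell cannot be told apart.

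Sequence before the gene start was examined for 8 of the 10 members with RefSeq promoter entries (GRCm38.p6, 250 bases before to 50 after a start), since NF-kappa-B, interferon-activated factors and AP-1 are well-known regulators of inflammatory genes. Searched on both strands, the kappa-B pattern (GGG and CC with 5 bases of any kind between them) occurred in 50.8% of 32851 mouse promoter windows. The interferon-response pattern (GAAA, 2 bases of any kind and GAAA) occurred in 3.4% and the AP-1 pattern (TGANTCA) in 7.8%. The windows of Tlr2, Tlr3 and Tlr5 held the kappa-B pattern and that of Tlr9 an AP-1 match, and of the windows of Tlr6, which has 2, one held a kappa-B match and the other interferon-response matches. The 4 stretches below show one of these matches for a gene that rose (Tlr2, Tlr3), one that did not pass the test (Tlr6) and one that fell (Tlr9), each on the strand of its gene with the matched bases in capitals. They lie at chr3:83841747-83841806 on the minus strand for Tlr2 (an overlapping pair of kappa-B matches), chr8:45410557-45410616 on the minus strand for Tlr3 (kappa-B), chr5:64959248-64959307 on the minus strand for Tlr6 (an overlapping pair of interferon-response matches) and chr9:106222515-106222574 on the plus strand for Tlr9 (AP-1).
Tlr2: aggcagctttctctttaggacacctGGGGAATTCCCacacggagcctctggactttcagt
Tlr3: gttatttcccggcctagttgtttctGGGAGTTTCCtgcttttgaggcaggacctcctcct
Tlr6: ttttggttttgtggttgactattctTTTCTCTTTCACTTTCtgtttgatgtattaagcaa
Tlr9: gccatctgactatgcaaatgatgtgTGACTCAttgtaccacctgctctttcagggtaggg
Not shown are the kappa-B matches of Tlr5, which was lower in exposed cells at day 5, and of Tlr6. A match is only a description of these letters. None of the 3 patterns occurred in the windows of Tlr1, Tlr8 and Tlr13.

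At day 1, exposed cells carried more Tlr2 and Tlr3 mRNA and less Tlr8 and Tlr13 mRNA than uninfected cells. At day 5, Tlr2, Tlr3 and Tlr7 were higher in exposed cells, and Tlr5, Tlr8, Tlr9 and Tlr13 were lower. Of the 10 genes, 9 passed the filter on low counts, and Tlr4 had 0 counts. At day 1, 2 were called higher and 2 lower by edgeR's quasi-likelihood test at a Benjamini-Hochberg adjusted p under 0.05, where 13.4% of all 17190 tested genes were higher and 10.5% lower. At day 5, 3 were higher and 4 lower, where 28.6% of tested genes were higher and 28.4% lower. The median log2 fold change of the 9 was 0.044 at day 1 and -0.039 at day 5, against 0.027 and 0.022 over all tested genes. The calls thus went in both directions at both days, as did those of all tested genes.

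**Figure D1:**
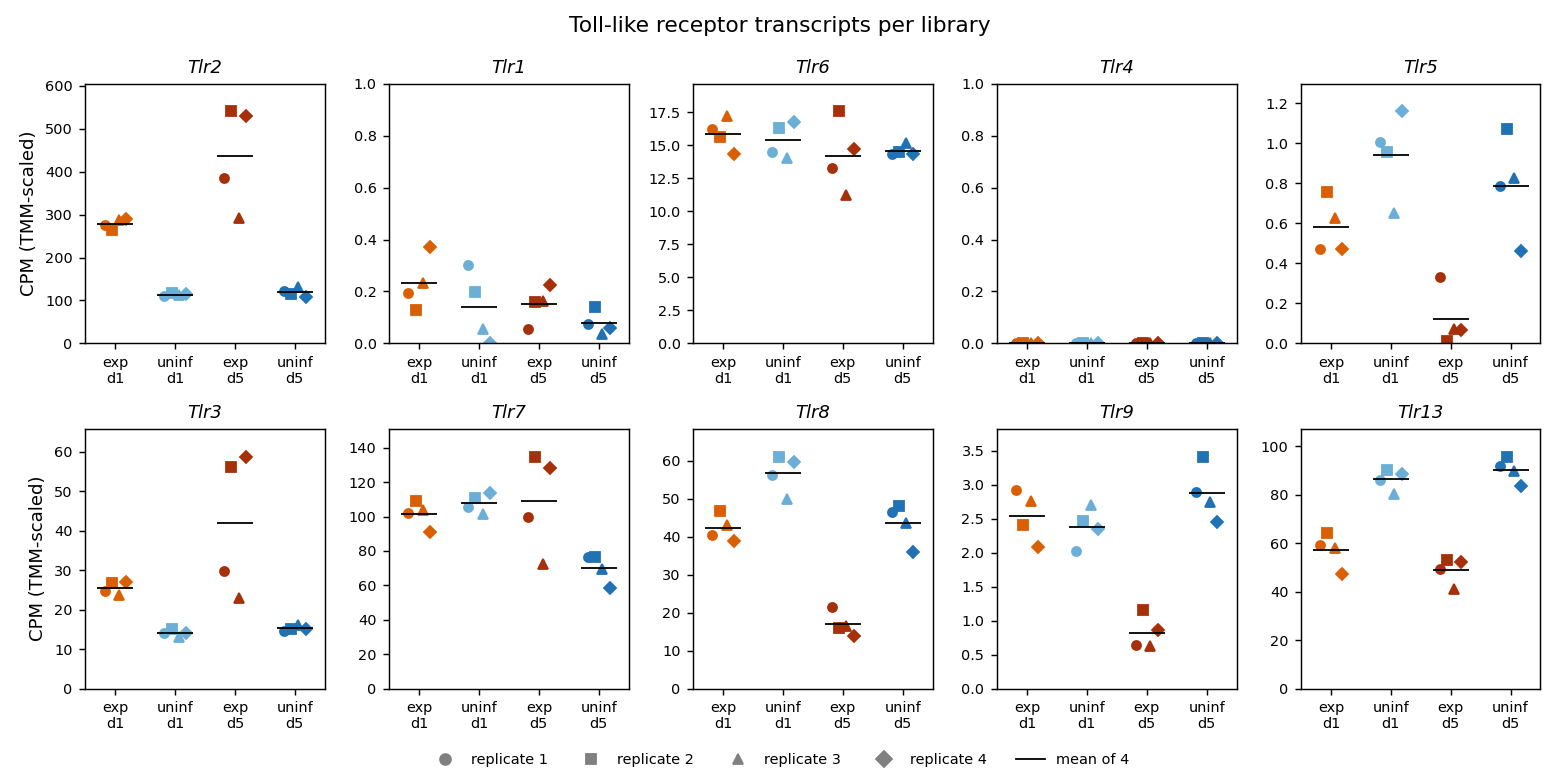
Level of each Toll-like receptor gene in CPM (a linear axis of its own per gene, from 0) in every library, with exposed (exp) and uninfected (uninf) groups at day 1 (d1) and day 5 (d5). Symbols mark replicates 1 to 4 and lines the mean of 4: Tlr2 libraries of exposed cells lie above all uninfected ones at both days, those of Tlr8 and Tlr13 lie below, and Tlr4 had 0 counts in all 16 libraries.

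Tlr2 (ENSMUSG00000027995.11), the lipoprotein receptor, was the most abundant member per kilobase of exon in every group. In exposed day 1 libraries it stood at 275, 264, 287 and 289 CPM (replicates 1 to 4), against 110, 117, 112 and 116 CPM in uninfected day 1 libraries. In exposed day 5 libraries the levels were 386, 540, 293 and 531 CPM, against 121, 116, 130 and 108 CPM in uninfected day 5 libraries. Every exposed library exceeded every uninfected one at both days, and exposed day 5 replicates 2 and 4 stood well above replicates 1 and 3. The log2 fold change was 1.29 ± 0.14 at day 1 (SE, adjusted p = 1.56e-06), a 2.45-fold difference, and 1.88 ± 0.14 at day 5 (adjusted p = 1.44e-09), a 3.68-fold difference. Uninfected cells held 119 ± 9.42 CPM at day 5 and 114 ± 3.04 CPM at day 1 (SD, n = 4 each, adjusted p = 0.792).

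Neither partner of Tlr2 passed the test at either day. Tlr6 (ENSMUSG00000051498.8), which pairs with Tlr2 for diacylated lipoproteins, averaged 15.9 ± 1.19 CPM in exposed, against 15.4 ± 1.33 CPM in uninfected day 1 cells. Its day 5 average was 14.2 ± 2.67 CPM in exposed, against 14.6 ± 0.387 CPM in uninfected cells. Its libraries overlapped between groups at both days, and the log2 fold changes of 0.044 ± 0.11 (adjusted p = 0.811) and -0.039 ± 0.11 (adjusted p = 0.779) did not pass the test. The sign at day 5 turned to 0.059 without exposed day 5 replicate 3. Tlr1 (ENSMUSG00000044827.11), the partner for triacylated lipoproteins, was close to the limit of detection, with 16, 10, 16 and 18 counts in exposed and 24, 16, 3 and 0 counts in uninfected day 1 libraries. At day 5 the counts were 4, 11, 9 and 13 in exposed and 6, 9, 3 and 4 in uninfected libraries. No difference in Tlr1 was detectable at this depth (log2 fold change 0.62 ± 0.63 at day 1, adjusted p = 0.519, and 0.92 ± 0.71 at day 5, adjusted p = 0.281). Tlr1 and Tlr6 lie on the same strand of chromosome 5 and share sequence: 13.63% of the 50-base stretches of Tlr1 transcripts also occurred in Tlr6 and 12.26% of those of Tlr6 in Tlr1. How reads from such stretches were assigned is not stated, and the counts of both genes carry that limit.

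Tlr4 (ENSMUSG00000039005.14), the receptor for lipopolysaccharide, had 0 counts in each of the 16 libraries. With 3 counts over a group as the limit, its level was at most 0.0109 CPM in exposed cells and 0.0111 CPM in uninfected day 1 cells, and at most 0.0118 CPM in exposed cells and 0.0104 CPM in uninfected day 5 cells, counting error only. It was 1 of 23315 genes with 0 counts throughout (42.1% of the files' genes). The genes on either side of Tlr4 in the GENCODE M21 gene order, named here after the values were seen, were both counted in all 16 libraries. Trim32, a ubiquitin ligase, averaged 13.6 ± 1.76 CPM in exposed, against 14.1 ± 0.741 CPM in uninfected day 1 cells, and 13.5 ± 2.43 CPM in exposed, against 12.8 ± 1.25 CPM in uninfected day 5 cells. Brinp1 averaged 37.8 ± 3.41 CPM in exposed, against 24.1 ± 0.701 CPM in uninfected day 1 cells, and 46.3 ± 9.78 CPM in exposed, against 15.1 ± 1.38 CPM in uninfected day 5 cells, which is higher in exposed cells at both days (log2 fold change 0.65, adjusted p = 6.81e-04 at day 1, and 1.62, adjusted p = 1.51e-09 at day 5).

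Tlr5 (ENSMUSG00000079164.11), the flagellin receptor, was scarce and was lower in exposed cells at day 5. It had 39, 58, 43 and 23 counts in exposed day 1 libraries, against 80, 77, 36 and 64 counts in uninfected day 1 libraries. In exposed day 5 libraries it had 24, 1, 4 and 4 counts, against 62, 69, 65 and 30 counts in uninfected day 5 libraries. In CPM the day 5 groups did not overlap: the highest exposed library, replicate 1, stood at 0.330 CPM and the lowest uninfected one at 0.460 CPM. The log2 fold change was -2.62 ± 0.49 at day 5 (adjusted p = 1.42e-04), and -3.93 without exposed day 5 replicate 1, which held 24 of the 33 counts of its group. The weakest value over the alternatives was -1.91, without exposed day 5 replicates 2 and 3. At day 1 it was -0.69 ± 0.42 (adjusted p = 0.244), and it passed the test only when fitted on the day 1 libraries alone (adjusted p = 0.0279).

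Among the nucleic acid receptors, Tlr3 (ENSMUSG00000031639.13) was higher in exposed cells at both days. It stood at 24.7, 26.7, 23.8 and 27.0 CPM in exposed day 1 libraries, against 14.0, 15.1, 13 and 14.1 CPM in uninfected day 1 libraries. In exposed day 5 libraries it stood at 29.9, 56.2, 23.0 and 58.8 CPM, against 14.6, 15.2, 16.1 and 15.1 CPM in uninfected day 5 libraries. The groups did not overlap at either day, and exposed day 5 replicates 2 and 4 were again the highest. The log2 fold change was 0.86 ± 0.21 at day 1 (adjusted p = 0.00865) and 1.46 ± 0.22 at day 5 (adjusted p = 2.09e-05). An opposite-strand transcript, Gm45542, overlaps Tlr3. Searched on both strands, 5.3% of the 50-base stretches of Tlr3 occurred in another gene, and that gene was Gm45542. The files are counts of the reverse strand, per their names.

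Tlr7 (ENSMUSG00000044583.14), a receptor for single-stranded RNA, was the most abundant endosomal member per kilobase of exon in every group except uninfected day 5, where Tlr13 led. At day 1 it stood at 102, 109, 104 and 91.0 CPM in exposed libraries and at 106, 111, 102 and 114 CPM in uninfected libraries, which overlapped (log2 fold change -0.088 ± 0.14, adjusted p = 0.696). By day 5 its levels were 99.9, 135, 72.3 and 128 CPM in exposed libraries and 76.2, 76.7, 69.6 and 58.3 CPM in uninfected libraries (log2 fold change 0.63 ± 0.14, adjusted p = 8.95e-04). The lowest exposed library, replicate 3, lay within the uninfected range. The uninfected level had itself fallen by day 5, with 70.2 ± 8.56 CPM at day 5 and 108 ± 5.42 CPM at day 1 (log2 fold change -0.62 ± 0.14, adjusted p = 0.00489). The level in exposed cells at day 5, 109 ± 28.6 CPM, was thus close to that of uninfected cells at day 1.

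Tlr8 (ENSMUSG00000040522.6), the neighbouring family member on the X chromosome, was lower in exposed cells at both days. At day 1 it stood at 40.5, 46.7, 43.2 and 38.9 CPM in exposed libraries, against 56.3, 61.1, 49.8 and 59.6 CPM in uninfected libraries. The day 5 levels were 21.5, 15.9, 16.5 and 13.9 CPM in exposed libraries, against 46.4, 48.2, 43.5 and 36.0 CPM in uninfected libraries. All exposed libraries lay below all uninfected ones of the same day. The log2 fold change was -0.42 ± 0.12 at day 1 (adjusted p = 0.0127) and -1.36 ± 0.12 at day 5 (adjusted p = 1.26e-08). Tlr8 also fell between days in uninfected cells, to 43.5 ± 5.36 CPM at day 5 against 56.7 ± 5.02 CPM at day 1 (log2 fold change -0.38 ± 0.12, adjusted p = 0.0261), a call lost without uninfected day 1 replicate 1, 2 or 4 or uninfected day 5 replicate 3 or 4 (adjusted p between 0.0558 and 0.107).

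Tlr13 (ENSMUSG00000033777.5), also on the X chromosome, was lower in exposed cells at both days. Its step was larger than that of Tlr8 at day 1 and smaller at day 5. At day 1 it stood at 59.2, 64.0, 58.1 and 47.4 CPM in exposed libraries, against 86.2, 90.2, 80.2 and 88.6 CPM in uninfected libraries. At day 5 it stood at 49.4, 53.1, 41.2 and 52.4 CPM in exposed libraries, against 91.7, 95.7, 89.9 and 83.4 CPM in uninfected libraries. The groups were well apart at both days, and exposed day 5 replicates 2 and 4 were again the highest of their group, within a narrower range. The log2 fold change was -0.59 ± 0.09 at day 1 (adjusted p = 1.56e-04) and -0.88 ± 0.09 at day 5 (adjusted p = 1.75e-07).

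Tlr9 (ENSMUSG00000045322.11), the receptor for CpG DNA, was low in all groups and differed at day 5. At day 1 it stood at 2.92, 2.41, 2.76 and 2.08 CPM in exposed libraries and at 2.02, 2.46, 2.70 and 2.35 CPM in uninfected libraries, which overlapped (log2 fold change 0.10 ± 0.19, adjusted p = 0.745). At day 5 it stood at 0.645, 1.15, 0.629 and 0.867 CPM in exposed libraries (47, 79, 35 and 50 counts), against 2.89, 3.41, 2.74 and 2.45 CPM in uninfected libraries. No exposed day 5 library reached the lowest uninfected one, and the log2 fold change was -1.80 ± 0.20 (adjusted p = 2.79e-07). Of the 5 endosomal receptors, Tlr3 and Tlr7 were thus higher in exposed cells at day 5 and Tlr8, Tlr9 and Tlr13 lower. Over all tested genes, 28.6% were higher and 28.4% lower at that day.

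**Figure D2:**
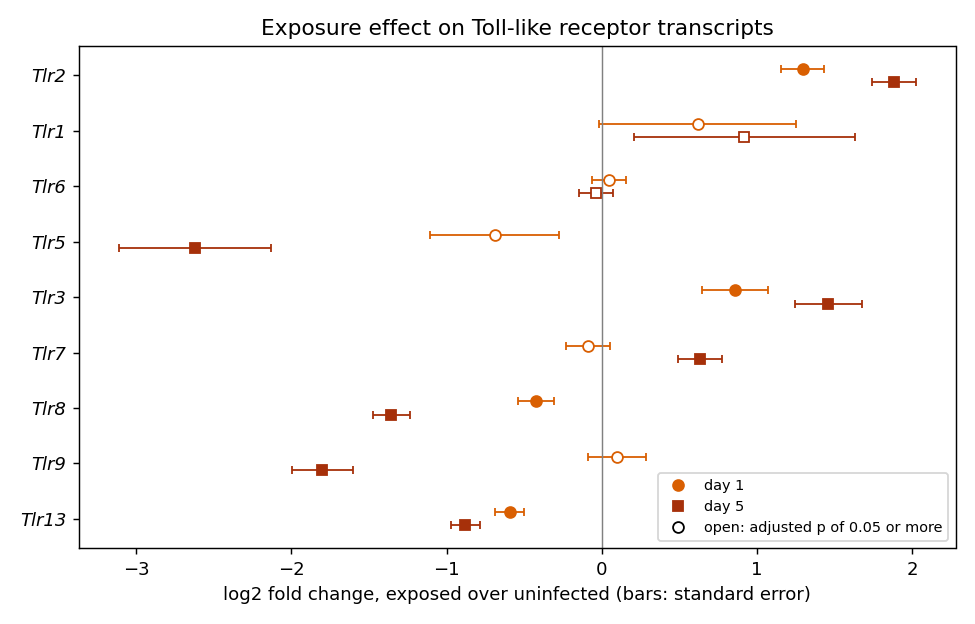
Log2 fold change of exposed over uninfected cells for each tested Toll-like receptor gene at day 1 and day 5 (4 against 4 libraries). Bars are standard errors from the test, whose spread was estimated over all 16 libraries, and open symbols mark tests not passed. Tlr2 and Tlr3 lie above 0 and Tlr8 and Tlr13 below 0 at both days, while Tlr9 lies near 0 at day 1 (0.10) and at -1.80 at day 5.

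The effect of exposure changed between the days for 5 of the 9 tested genes, tested as an interaction over all 16 libraries, where 16.4% of tested genes had a higher effect at day 5 and 19.5% a lower one. The change was upward for Tlr2 (0.59 ± 0.19 on the log2 scale, adjusted p = 0.0230) and Tlr7 (0.72 ± 0.20, adjusted p = 0.00902). It was downward for Tlr8 (-0.94 ± 0.17, adjusted p = 2.45e-04), Tlr9 (-1.90 ± 0.27, adjusted p = 3.21e-05) and Tlr5 (-1.93 ± 0.64, adjusted p = 0.0249). The Tlr2 call was lost without exposed day 5 replicate 4 (0.48, adjusted p = 0.0553). The Tlr5 call was lost in 4 alternatives: without exposed day 1 replicate 2 (adjusted p = 0.0539), without exposed day 5 replicate 4 (0.0524), without uninfected day 5 replicate 2 (0.0535) and without exposed day 5 replicates 2 and 3 together (0.085), a pair whose library codes belong to another series. The Tlr5 value was -1.22 without that pair and -3.24 without exposed day 5 replicate 1. Tlr3 (0.60 ± 0.30, adjusted p = 0.133) and Tlr13 (-0.29 ± 0.13, adjusted p = 0.0988) did not pass. Tlr3 passed without that pair (0.68, adjusted p = 0.0256), without exposed day 5 replicate 1 (0.73, adjusted p = 0.0497) or without its replicate 3 (0.81, adjusted p = 0.00645), and Tlr13 without scaling of the library totals (-0.37, adjusted p = 0.0166) or without exposed day 1 replicate 4 (-0.37, adjusted p = 0.024). In uninfected cells alone, 0 members were higher and 2, Tlr7 and Tlr8, were lower at day 5 than at day 1, where 19.7% of tested genes were called, 10.8% higher and 8.91% lower. This comparison and the interaction share the uninfected libraries with the comparisons at each day.

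To compare levels between genes, CPM were divided by the exon length of each gene in kilobases. In exposed day 1 cells, Tlr2 led with 92.6 ± 3.85 CPM per kilobase, followed by Tlr7 at 24.9 ± 1.89, Tlr13 at 13.3 ± 1.62 and Tlr8 at 11.8 ± 0.947 CPM per kilobase, and the libraries of the last pair overlapped. In uninfected day 1 cells the order was the same but flatter, with Tlr2 at 37.8 ± 1.01, Tlr7 at 26.5 ± 1.33, Tlr13 at 20.0 ± 1.02 and Tlr8 at 15.8 ± 1.40 CPM per kilobase, none of which overlapped. In exposed day 5 cells Tlr2 stood at 145.1 ± 39.6, Tlr7 at 26.6 ± 7.01, Tlr13 at 11.4 ± 1.26, Tlr3 at 8.06 ± 3.49 and Tlr8 at 4.73 ± 0.903 CPM per kilobase, where Tlr3 overlapped both Tlr13 and Tlr8. In uninfected day 5 cells Tlr2 stood at 39.4 ± 3.13, Tlr13 at 20.9 ± 1.19, Tlr7 at 17.2 ± 2.10 and Tlr8 at 12.1 ± 1.50 CPM per kilobase, so that Tlr13 and Tlr7 had changed places. Tlr6 stood above Tlr3 in uninfected cells, and Tlr3 above Tlr6 in exposed cells, where their libraries overlapped at both days. Tlr9, Tlr5 and Tlr1 were below 1 CPM per kilobase in all groups.

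Added up, the family's transcripts shifted toward Tlr2. Tlr2 made up 60.7% ± 2.68 of the summed level per kilobase in exposed day 1 cells, against 35.0% ± 0.975 in uninfected day 1 cells. At day 5 it made up 72.3% ± 1.30 in exposed cells, against 40.4% ± 1.92 in uninfected cells (SD, n = 4 each). The exposed day 5 libraries, which differed widely in the level of Tlr2, lay between 71.1% and 73.7% in its share. The share of Tlr13 was 5.88% ± 0.976 in exposed and 21.5% ± 0.772 in uninfected day 5 cells, and that of Tlr8 was 2.54% ± 0.950 in exposed and 12.4% ± 0.810 in uninfected day 5 cells. Shares sum to a whole, so a higher share of Tlr2 lowers those of the others whatever their level.

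**Figure D3:**
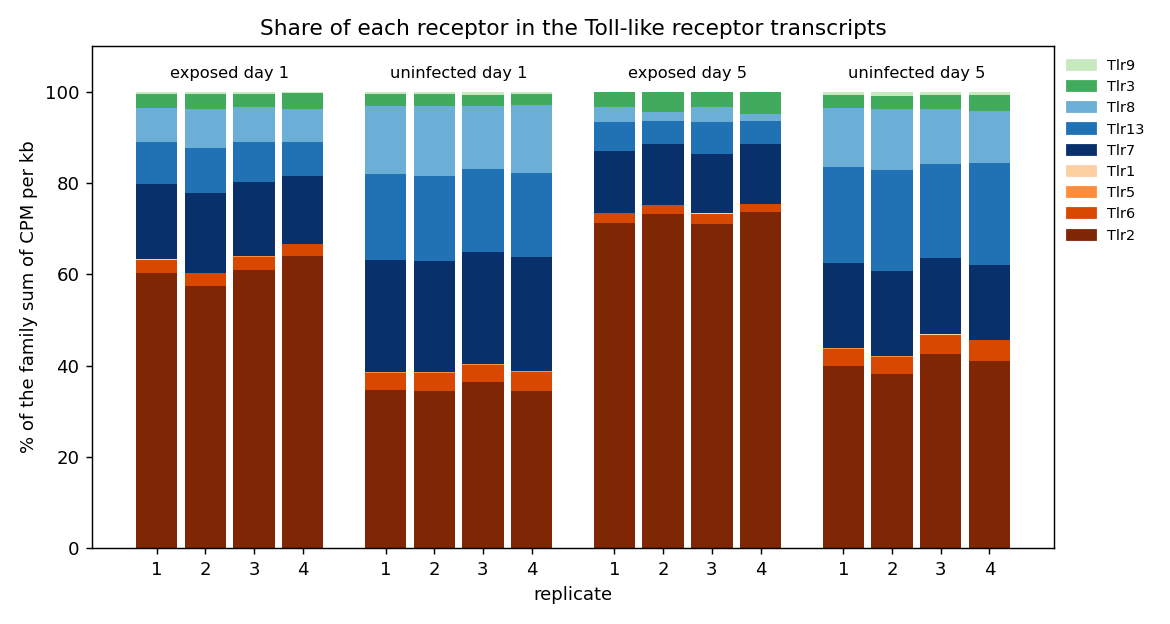
Share of each Toll-like receptor gene in the family's summed level per kilobase of exon (percent, stacked) in each of the 16 libraries. Tlr2, at the foot of each bar, averages 60.7% in exposed and 35.0% in uninfected day 1 cells, and 72.3% in exposed and 40.4% in uninfected day 5 cells.

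Ratios of per-kilobase levels within a library do not depend on how libraries are scaled. Tlr2 stood at 21.9 ± 2.05 times the level of its partner Tlr6 in exposed and 9.18 ± 0.582 times in uninfected day 1 cells, and at 37.7 ± 5.13 times in exposed and 10.1 ± 0.603 times in uninfected day 5 cells. Tlr7 stood at 5.87 ± 2.22 times the level of Tlr8 in exposed and 1.42 ± 0.0200 times in uninfected day 5 cells, with all exposed libraries at or above 3.84 and all uninfected ones at or below 1.44. At day 1 the same ratio was 2.11 ± 0.0781 in exposed and 1.68 ± 0.0839 in uninfected cells. Tlr7 stood at 114 ± 17.5 times the level of Tlr9 in exposed and 20.9 ± 1.46 times in uninfected day 5 cells, and at 34.5 ± 4.13 times in exposed and 39.1 ± 5.27 times in uninfected day 1 cells.

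Other genes of the pathway, with cytosolic receptors outside it, were taken from 8 lists of 69 genes, of which 66 were tested. The lists were chosen with earlier results of these data known, so the shares called are only a description. At day 1, 22 were higher and 6 lower in exposed cells (42.4% called, against 23.8% of all tested genes, median log2 fold change 0.080 against 0.027). At day 5, 31 were higher and 10 lower (62.1% called, against 57% of all tested genes, median 0.26 against 0.022). The day 5 share is thus near that of all genes. The totals for pathway genes, here and below, include 10 cytosolic receptors and adaptors that sense microbial products without Toll-like receptors. Their share called was the highest of any list at both days. By list, the share called at day 1 and day 5 was 16.7% and 66.7% for accessory proteins, 25% and 37.5% for chaperones, 40% and 60% for proteases, 20% and 80% for TIR adaptors, 47.1% and 52.9% for kinases and ligases, 50% and 64.3% for brakes and 70% and 90% for cytosolic receptors. These are shares of 5 to 17 genes, and those of proteases, kinases and brakes at day 5 were near the 57% of all genes. At day 1 single calls depended on the processing: over the alternatives, lower calls ran from 0 to 2 for accessory proteins and for brakes and from 0 to 4 for chaperones, and higher calls from 0 to 1 for proteases. At day 5 higher calls for chaperones ran from 2 to 5, with 5 when exposed day 5 replicate 3 was left out.

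**Figure D4:**
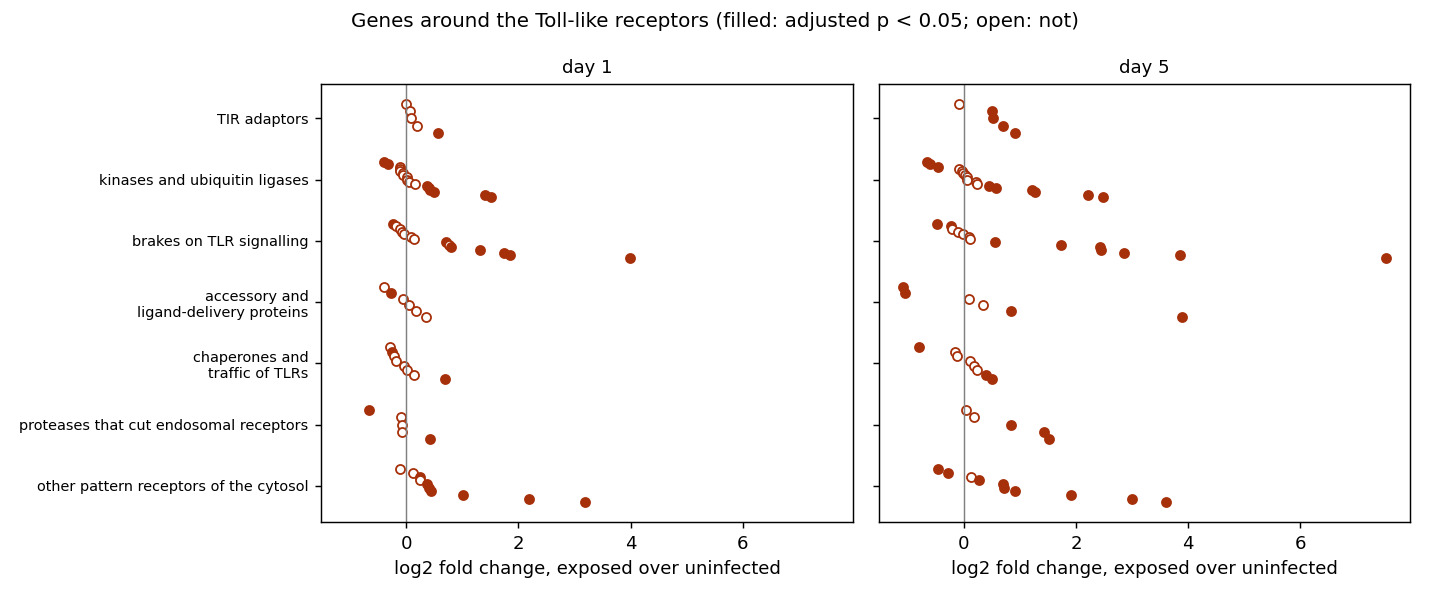
Log2 fold change of exposed over uninfected cells for the tested genes of each pathway list except Tlr11 at day 1 and day 5, 1 point per gene, filled where the adjusted p was under 0.05. At day 5 the TIR adaptors have a median of 0.52 and the kinases and ubiquitin ligases one of 0.066.

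Of 7 accessory and ligand-delivery proteins, 6 were tested: 0 rose and 1 fell at day 1, and 2 rose and 2 fell at day 5. Over all tested genes, 13.4% were higher and 10.5% lower at day 1, and 28.6% higher and 28.4% lower at day 5. The day 1 call, Hmgb1, was lost without a filter and when any day 1 library but exposed day 1 replicate 2 was left out (adjusted p between 0.0515 and 0.106), while Cd36, a lipid receptor, was lower under 7 alternatives (adjusted p between 0.00251 and 0.0474). Cd14, which passes lipopolysaccharide and lipoproteins to Tlr4 and Tlr2, ranged over 114 to 309 CPM in exposed, against 11.3 to 16.5 CPM in uninfected day 5 libraries (log2 fold change 3.89 ± 0.30, adjusted p = 1.1e-08). Its day 1 average was 8.06 ± 1.20 CPM in exposed, against 6.30 ± 0.672 CPM in uninfected cells (adjusted p = 0.398), and its effect differed between days by 3.54 ± 0.40 (adjusted p = 6.42e-06). Lbp, the lipopolysaccharide-binding protein, also rose at day 5 (0.85 ± 0.16, adjusted p = 2e-04). Cd180, a surface relative of Tlr4, fell at day 5 (-1.08 ± 0.23, adjusted p = 5.5e-04), as did Hmgb1, a nuclear protein that can carry nucleic acids to endosomal receptors (-1.04 ± 0.09, adjusted p = 9.33e-09). Ly96, the co-receptor that binds lipopolysaccharide for Tlr4, averaged 7.06 ± 1.82 CPM in exposed, against 5.57 ± 0.363 CPM in uninfected day 5 cells (adjusted p = 0.0727), so it was counted where Tlr4 was not. Ly86, the partner of Cd180, had 6 counts in exposed and 0 in uninfected day 1 libraries, and 4 in exposed and 0 in uninfected day 5 libraries.

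Chaperones and trafficking proteins bring the receptors out of the endoplasmic reticulum. Of these 8, 1 rose and 1 fell at day 1, where 13.4% of all tested genes were higher and 10.5% lower. At day 5, 2 rose and 1 fell, where 28.6% of all tested genes were higher and 28.4% lower. Unc93b1, which escorts the endosomal receptors, averaged 198 ± 36.8 CPM in exposed, against 151 ± 8.90 CPM in uninfected day 5 cells (log2 fold change 0.39 ± 0.10, adjusted p = 0.00256), with libraries that overlapped. Tasl, an adaptor that links Slc15a4 to interferon regulatory factor 5, rose at day 1 (0.69 ± 0.11, adjusted p = 1.81e-04) and day 5 (0.51 ± 0.11, adjusted p = 5.66e-04). Cnpy4 fell at day 5 (-0.79 ± 0.09, adjusted p = 4.94e-07). At day 1 its value was -0.25 ± 0.09 (adjusted p = 0.0482), a call lost in 14 alternatives, among them no scaling, no filter and any day 1 library left out (adjusted p between 0.0508 and 0.152). Of 5 proteases that cut endosomal receptors into their active form, 3 rose and 0 fell at day 5. This share of 60% called was near the 57% of all tested genes. The 3 were Ctsb (1.53 ± 0.15, adjusted p = 5.67e-08), Ctsk (1.42 ± 0.13, adjusted p = 2.08e-08) and Ctsl (0.85 ± 0.14, adjusted p = 4.18e-05). At day 1 Lgmn, asparagine endopeptidase, fell (-0.65 ± 0.13, adjusted p = 0.00136). Ctsk was higher at day 1 (0.42 ± 0.13, adjusted p = 0.0206), a call lost without exposed day 1 replicate 1, 2 or 3 or uninfected day 1 replicate 1 or 4 (adjusted p between 0.0523 and 0.0753).

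Of 6 TIR adaptors 5 were tested, of which 1 rose and 0 fell at day 1, where 13.4% of all genes were higher, and 4 rose and 0 fell at day 5, where 28.6% were higher. Myd88, used by every member here but Tlr3, averaged 85.7 ± 3.75 CPM in exposed, against 57.7 ± 0.420 CPM in uninfected day 1 cells (0.57 ± 0.10, adjusted p = 2.85e-04), and 83.5 ± 14.0 CPM in exposed, against 58.5 ± 3.87 CPM in uninfected day 5 cells (0.51 ± 0.10, adjusted p = 1.34e-04). Ticam1, the adaptor of Tlr3, rose at day 5 (0.69 ± 0.15, adjusted p = 7.47e-04), as did Ticam2 (0.52 ± 0.15, adjusted p = 0.0047), which couples Tlr4 to it, and Pik3ap1, the adaptor to PI3 kinase (0.91 ± 0.10, adjusted p = 1.85e-07). Sarm1 was too low to test. Among 17 kinases and ubiquitin ligases of the pathway, 6 rose and 2 fell at day 1, and 6 rose and 3 fell at day 5. The share of all tested genes that were lower was 10.5% at day 1 and 28.4% at day 5. Irak2, a kinase of the MyD88 complex, rose at day 5 (1.27 ± 0.08, adjusted p = 6.7e-11) while Irak4, its partner in that complex, fell (-0.65 ± 0.06, adjusted p = 6.21e-08). Ikbke, a kinase that activates interferon regulatory factors, rose by 1.51 ± 0.13 at day 1 and 2.22 ± 0.13 at day 5 on the log2 scale. Peli3 rose by 1.40 ± 0.12 at day 1 and 2.49 ± 0.12 at day 5, and Traf3 by 0.49 ± 0.09 and 1.23 ± 0.09.

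Of 14 brakes on the pathway, 6 rose and 1 fell at day 1, where 13.4% of all tested genes were higher and 10.5% lower. At day 5, 7 rose and 2 fell, where 28.6% of all tested genes were higher and 28.4% lower. Irak3, an inactive relative of the IRAK kinases that blocks the MyD88 complex, ranged over 99.1 to 173 CPM in exposed, against 20.2 to 25.8 CPM in uninfected day 5 libraries (log2 fold change 2.45 ± 0.14, adjusted p = 2.79e-11). At day 1 its log2 fold change was 0.80 ± 0.13 (adjusted p = 2.64e-04). Tnip3, Tnfaip3 and Tnip1 rose more than Irak3 at day 5, by 7.53 ± 0.20, 3.86 ± 0.17 and 2.85 ± 0.13 on the log2 scale. Their day 1 values were 3.98 ± 0.18, 1.84 ± 0.15 and 0.71 ± 0.12, also called higher. Of 10 receptors and adaptors of the cytosol that sense microbial products without Toll-like receptors, 7 rose and 0 fell at day 1, and 7 rose and 2 fell at day 5. Rigi, a sensor of RNA in the cytosol, rose by 3.18 ± 0.15 at day 1 and 3.60 ± 0.15 at day 5, and Nod2, a sensor of peptidoglycan fragments, by 1.01 ± 0.11 and 1.92 ± 0.11 on the log2 scale. Nod1 rose at day 1 (0.25 ± 0.07, adjusted p = 0.0107) and fell at day 5 (-0.45 ± 0.07, adjusted p = 1.26e-05).

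The genes whose levels ran most like a member's over the 16 libraries were found by Pearson's r on log2 CPM, as a description, since the libraries share groups and scaling. For Tlr2 they were Ifih1 (0.996), Irgm1 (0.994) and Tap1 (0.993), and for Tlr3 Azi2 (0.984), Tor1aip2 (0.983) and Pcgf5 (0.980). For Tlr7 they were Npc1 (0.975), Erbin (0.965) and Ptk2 (0.959), and for Tlr8 Dock8 (0.992), Plk4 (0.991) and Fam111a (0.991). Tlr9 ran most like Spag11b (0.964), and Tlr13 most like Zfp703 (0.979), Ap2a2 (0.976) and Akt2 (0.971). Tlr5 ran most like Skida1 (0.968), Hnrnpa1 and Mcm4 (both 0.966), and Tlr6, whose level hardly varied, reached 0.888 with Tprkb. Tlr1, at a few counts per library, reached 0.676 at most. No gene appeared in the first 3 of more than 1 member.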

How the data were processed

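Polyadenylated RNA of MPI-2 cells was sequenced in 16 libraries. Each deposited file gives raw gene counts of 1 library, made by the authors with STAR on GRCm39 per the submitters' processing notes (version, annotation and read length are not given in the sources used here), and of the reverse strand per the file names. Symbols came from GENCODE M21 (GRCm38) for 52083 of 55359 identifiers, and genes without a symbol held 0.449% of counts. Members were matched by symbol and lists were chosen with earlier results of these data known.

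Genes passing filterByExpr by group (17190) were scaled by TMM and fitted to all 16 libraries with edgeR 4.0.16 (R 4.3.3, robust quasi-likelihood, a mean per group, common biological coefficient of variation 0.149). The contrasts were exposure at day 1, exposure at day 5, their difference (an interaction) and time without exposure. Tests were two-sided, Benjamini-Hochberg adjusted over all tested genes and called under 0.05. Standard errors are the size of the log2 fold change divided by the square root of the test's F value. They thus carry the spread of all 16 libraries. CPM are counts per 1000000 of the TMM-scaled library total. A group at 0 counts was given a limit of 3 counts over the group. From each pathway list, up to 4 genes with the smallest p at day 5 and 2 at day 1 were to be named. Of those, Ap3b1, Ctss, Ifih1 and Aim2 are left without test values here. Ly96, Ly86, Sarm1, Irak4, Nod1, Trim32 and Brinp1 were added after their values were seen. Exon lengths and shared 50-base stretches came from GENCODE M21, promoters from RefSeq (GRCm38.p6), so no coordinates in the files' build are given.

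Other settings tried were RLE size factors, no scaling beyond the library total, no filter beyond 1 read, 1 CPM in 4 libraries, DESeq2 1.42.0, a fit on each contrast's own libraries, a replicate block, leaving out each library, and the fit without exposed day 5 replicates 2 and 3. The tests were also tried on simulated counts, with the common coefficient of variation above as the spread of every gene and group. Such counts do not carry the wider spread of exposed day 5, so they do not check the tests for it. Figures were drawn with matplotlib 3.10.9.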

Additional observations from a re-analysis of the deposited data

Results flagged for a closer look

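The effect of exposure differed between day 1 and day 5 by an interaction test for 5 receptor genes, with the difference given as day 5 minus day 1 on the log2 scale. It was 0.59 for Tlr2, 0.72 for Tlr7, -0.94 for Tlr8, -1.90 for Tlr9 and -1.93 for Tlr5. For Tlr7 the uninfected level differed between days as well, with 70.2 CPM at day 5 and 108 CPM at day 1. Of 40 groups of 4 libraries (the 9 members with counts and Tlr11), 0 passed Dixon's 95% criterion for a library apart from the others. Exposed day 5 replicate 1 stood near it for Tlr5, with 0.330 CPM against 0.0146 to 0.0718 CPM in the other 3 libraries.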

How the results depend on the processing

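At day 1 and day 5 the tested receptor genes kept their direction and call under all alternatives in which they were tested, with 2 exceptions. These were Tlr5 at day 1, called when fitted on the day 1 libraries alone, and Tlr6 at day 5, whose uncalled sign turned. Tlr5 was tested under 23 alternatives at each day, and Tlr1 under 23 at day 1 and 22 at day 5. The other tested members had 24. With the filter of 1 CPM in 4 libraries Tlr5 was not tested. Fitted on its own libraries, the day 1 comparison called 3650 genes higher and 3371 lower, with 11 pathway genes lower, and the comparison of uninfected days 3386 higher and 3038 lower, with 14 pathway genes higher and 20 lower. Without exposed day 5 replicates 2 and 3, 2894 genes and 11 pathway genes were lower at day 1, and 2800 genes were higher and 2513 lower between uninfected days. Without a filter, 3 pathway genes were lower at day 1. With single libraries left out, the day 1 count of lower pathway genes ran from 3 to 8. The interaction called 1 to 3 receptors and 16 to 31 pathway genes upward, and uninfected days gave 1227 to 2436 genes higher, 881 to 2221 lower, 6 to 16 pathway genes lower and 1 to 2 receptors lower.

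Some uncalled values changed sign. With a library left out, Cd180 ran from -0.13 to 0.070 and Ctsb from -0.10 to 0.0035 at day 1, and Tlr6 from -0.16 to 0.059, Cd36 from -0.033 to 0.22 and Lgmn from -0.082 to 0.18 at day 5. For the interaction Tlr1 ran from -0.37 to 0.69, Tlr6 from -0.20 to 0.015 and Myd88 from -0.13 to 0.048. Without exposed day 5 replicates 2 and 3, Cd36 was -0.18 at day 5 and Myd88 0.020 in the interaction, and without scaling Lgmn was -0.057. The cause was not tested. Same-numbered libraries did not deviate together (24 pairs, r between -0.151 and 0.148, 3 of 16 libraries closest to their own number). With the replicate block, 2216 genes were higher and 1740 lower at day 1, 4810 higher and 4826 lower at day 5, receptor calls numbered the same, and Cnpy4 at day 1 was not called (-0.25, adjusted p = 0.0536). Depth limits Tlr1 and Tlr5, whose libraries held at most 24 and 80 counts.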

Other observations

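Of the other mouse Toll-like receptor genes, Tlr12 had 0 counts in all 16 libraries and Tlr11 was near 0. Tlr11, which binds profilin of protozoa in mice, averaged 0.418 ± 0.0335 CPM in exposed, against 0.258 ± 0.0535 CPM in uninfected day 1 cells (log2 fold change 0.69 ± 0.35, adjusted p = 0.159). At day 5 it averaged 0.309 ± 0.134 CPM in exposed, against 0.221 ± 0.0797 CPM in uninfected cells (0.46 ± 0.36, adjusted p = 0.286).

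Within the exposed day 5 group, replicate 3 was the lowest library for Tlr2, Tlr3, Tlr6, Tlr7, Tlr9 and Tlr13. The TMM factors of replicates 1 to 4 were 0.989, 0.845, 1.027 and 0.935, so replicate 3 also had the highest factor. With library totals alone, Tlr2 in these libraries was 382, 456, 301 and 496 CPM and Tlr3 was 29.5, 47.5, 23.6 and 55.0 CPM. For Tlr9 on that scale replicate 1, at 0.638 CPM, lay below replicate 3, at 0.645 CPM. Replicates 2 and 3, the second highest and the lowest for Tlr2 on that scale, are those whose library codes belong to another series.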
